A study of Homo sapiens with 12 samples.

Results

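The 3 siControl libraries of the series, out of 12 in 4 groups, were taken on their own to describe the expression state of control MDA-MB-231 cells. They were chosen by their label, no measured value entered the choice, and no library of the siNELFA, siYAP or combined knockdown groups was used. MDA-MB-231 is an established human line of triple-negative breast cancer, and all values come from this 1 line. The siControl cells had received a pool of non-targeting siRNA at 50 to 100 nM through a DharmaFECT reagent, so that what is described is the state of transfected rather than untouched cells. The labels give RNA collection at 48 h and 72 h without tying a time to a library, and the study's methods give 72 h for the sequenced RNA and a minimum RNA integrity for every sample. RNA was depleted of ribosomal RNA, made into strand-specific libraries and sequenced as paired reads of 150 bases.

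Triple-negative tumours lack the estrogen and progesterone receptors and amplified HER2, and lines of this kind often carry mesenchymal features such as vimentin filaments and a fibronectin-rich matrix. The Hippo kinases MST and LATS phosphorylate the coactivators YAP and TAZ and hold them in the cytoplasm, and unphosphorylated YAP or TAZ binds TEAD factors at its target genes. At many genes RNA polymerase II stops a short way into the gene, a step known as promoter-proximal pausing. NELF and DSIF hold the polymerase there until the kinase P-TEFb releases it, and the 7SK small nuclear ribonucleoprotein keeps P-TEFb inactive in reserve.

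The libraries held 9608145, 17817083 and 18803104 counts, and replicate 1 stood apart from the others. Among 13195 expressed genes, 18.9% differed by more than 2-fold in TPM (a transcript level scaled for gene length and to the same total in each library) between replicates 1 and 2 and 21.5% between replicates 1 and 3, against 3.26% between replicates 2 and 3. The Spearman correlation of counts across 15320 genes was 0.938, 0.928 and 0.992 for the same pairs, where genes are not independent points. Many levels are therefore given per library, in the order of replicates 1, 2 and 3, so that they can be read with and without replicate 1. Others are given as a mean with the SD over the 3 libraries, which does not show replicate 1 apart. No value of RNA integrity per library was used here.

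A gene was called expressed where each library had a TPM of at least 1 and at least 10 counts, undetected where all had 0 counts, and low otherwise. Of 19961 protein-coding genes, 11412 were expressed (57.2%), 4411 were low (22.1%) and 4138 were undetected (20.7%). Across all 58051 genes, 13195 were expressed (22.7%) and 28682 undetected (49.4%). Among the non-coding classes, 346 of 7533 lincRNA genes, 343 of 5526 antisense genes and 308 of 10270 processed pseudogenes passed as expressed. A processed pseudogene shares its sequence with its parent gene, so that its reads can belong to the parent.

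By TPM, the most abundant RNAs were small structural RNAs of the signal recognition particle, the 7SK particle and RNase P and MRP. RN7SL1, an RNA copy of the signal recognition particle that directs secreted proteins to the endoplasmic reticulum, had TPM values of 76717, 113002 and 129075. RN7SL2, another copy of the same RNA, had 63123, 55830 and 96543 TPM. RN7SK, the scaffold that holds P-TEFb inactive, had 85777, 94286 and 87695 TPM, the steadiest of the 10 most abundant non-coding genes across libraries. RN7SK lies on chromosome 6 (GRCh38, GENCODE release 44) at 52995621 to 52995948 on the plus strand.

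RN7SL1 and RN7SL2 are 98.3% identical in the GENCODE transcripts, and how reads that map to both were shared is not given in the sources used here. RN7SL5P, a further copy, had 26399, 26678 and 32576 TPM on only 74, 262 and 365 counts. RN7SL4P had 21009, 2878 and 24696 TPM, an 8.58-fold range, on 402, 586 and 1740 counts. With TPM computed here from counts and exon length, RN7SL5P averaged 118 TPM and RN7SL4P 525 TPM, against 28551 and 16194 in the deposited values. The summed share of all 680 RN7SL genes was 18.8%, 19.9% and 28.4% of TPM but 1.02%, 2.45% and 2.04% of counts. For RN7SK the shares were 8.58%, 9.43% and 8.77% of TPM and 1.06%, 1.08% and 1.17% of counts. RPPH1, the RNA of RNase P, which trims tRNA precursors, had 14609, 19824 and 19262 TPM, and RMRP, the RNA of RNase MRP, had 5597, 9779 and 9186 TPM. RPPH1, RMRP and RN7SL1 each had another entry under the same symbol with identical counts in every library, so reads over such a pair were counted for both. SNORD3A and SNORD3C, which encode U3 small nucleolar RNA that acts in ribosomal RNA processing, had means of 5016 ± 944 and 3993 ± 1217 TPM (SD, n = 3), on no more than 223 and 62 counts. From counts and exon length their means were only 32.5 and 12.9 TPM, so their high rank rests on the deposited TPM.

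MALAT1, a nuclear-retained long non-coding RNA, had 17837, 3642 and 2730 TPM. In counts, where length does not enter, MALAT1 had 423628, 181800 and 153038, a higher number in the shallowest library than in the others. NEAT1, the scaffold of nuclear paraspeckles, named here after its values were seen, had 889, 385 and 321 TPM. Both were highest in replicate 1. The lincRNA genes, with MALAT1 and NEAT1 included, took 5.83% of counts there against 1.84% and 1.63% in replicates 2 and 3. MALAT1 alone had 423628 of the 9608145 counts of replicate 1. MALAT1 and NEAT1 together held most lincRNA counts in each library, so these shares do not describe the other lincRNA genes.

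**Figure D1:**
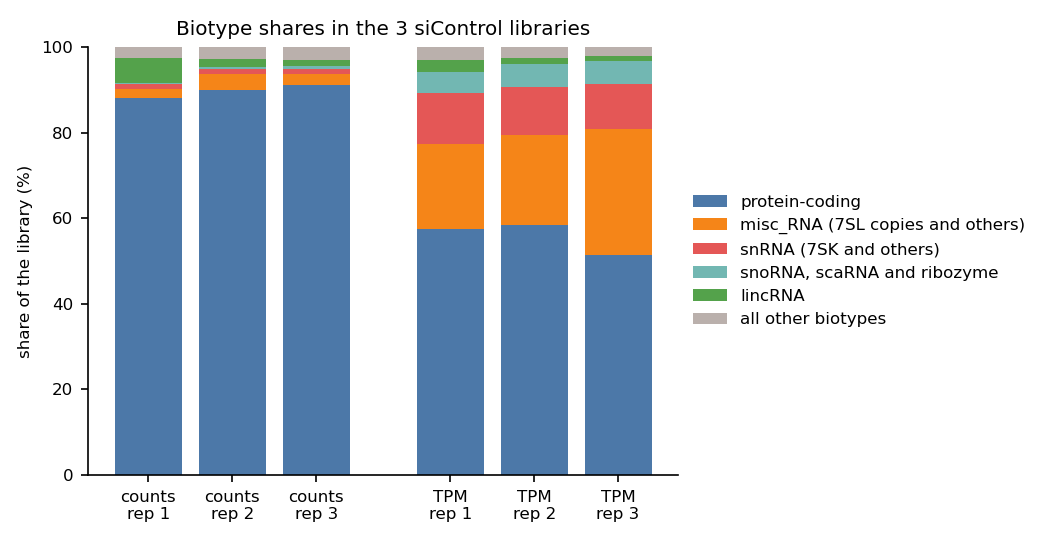
Share of each siControl library (%) by gene biotype, from counts (left 3 bars) and from TPM (right 3 bars). Protein-coding genes held 88.1% to 91.1% of counts but 51.4% to 58.4% of TPM, where misc_RNA and snRNA genes took most of the rest.

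The plot of biotype shares shows how far the picture depended on the unit. Protein-coding genes took 89.7% ± 1.51 of counts and 55.7% ± 3.80 of TPM (SD, n = 3). The 10 most abundant genes took 35.8% ± 4.76 of TPM and 8.17% ± 1.37 of counts. With small RNAs and mitochondrially encoded genes left out, the top 10 genes took 6.64% ± 1.56 and the top 1000 genes 52.8% ± 1.04 of the remaining TPM. Since the share of small RNAs ranged from 36.9% to 45.4% of TPM, the TPM of every other gene also carries that difference. Scaling to the protein-coding total multiplies TPM by 1.74, 1.71 and 1.95 in the 3 libraries.

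The 20 most abundant protein-coding genes were led by both ferritin chains and an elongation factor. FTH1, the ferritin heavy chain, had 5467, 5088 and 4511 TPM, and FTL, the light chain, had 4675, 4950 and 4209 TPM. EEF1A1, the elongation factor that brings tRNA to the ribosome, had 6069, 4676 and 3680 TPM. These 3 genes ranked above the other 17 of the top 20 in every library. With TPM computed here from counts and exon length, FTL exceeded FTH1, at a mean log2 ratio of 1.21 against -0.12, and EEF1A1 had a mean of 1510 TPM, below TMSB10, ACTB, S100A6 and GAPDH. The actin-binding thymosins TMSB10 and TMSB4X averaged 3300 ± 368 and 2275 ± 1155 TPM, and the order of the pair turned between libraries, with TMSB4X higher in replicate 1 only. With TPM from counts and exon length TMSB10 was higher in every library, by 2.39, 6.04 and 6.44 times. ACTB and ACTG1, the cytoplasmic actins, averaged 3096 ± 479 and 1581 ± 207 TPM. S100A6, a calcium-binding protein, had 3050, 1958 and 1371 TPM, and B2M, the light chain of MHC class I, had 3074, 1234 and 1094 TPM, both highest in replicate 1. GAPDH, a glycolytic enzyme, had 1371, 2149 and 1895 TPM. PPIA, a peptidyl-prolyl isomerase, averaged 1412 ± 246 TPM, and TPT1, a translationally controlled protein, 1406 ± 295 TPM. The other 8 of the top 20 encode ribosomal proteins, led by RPS18 at 2105 ± 233 TPM and RPS24 at 2009 ± 246 TPM, with RPL26, RPL7A, RPS23, RPL35, RPS3 and RPL12 between 1378 and 1566 TPM. Ribosomal protein genes made up 53 of the 100 most abundant protein-coding genes, which spanned mean levels of 637 to 5022 TPM.

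The plot of call shares by list sets 9 lists of known genes beside all protein-coding genes. On the scale of log2(TPM + 1), the median level over all protein-coding genes was 2.56 ± 0.08 (SD, n = 3). The median was 5.26 ± 0.13 for Hippo genes, 5.14 ± 0.15 for pausing factors, 4.99 ± 0.32 for mesenchymal genes, 3.71 ± 0.11 for secreted factors and 2.88 ± 0.25 for epithelial genes. It was 3.36 ± 0.34 for cancer genes, 2.34 ± 0.24 for receptors and 1.16 ± 0.07 for breast subtype genes. For markers of other cell types the median was 0.

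The receptors that define triple-negative disease were at or near 0 except ERBB2. ESR1, the estrogen receptor, had 0, 2 and 6 counts, and PGR, the progesterone receptor, had 4, 0 and 2 counts. ERBB2, which encodes HER2, was expressed at 20.1, 29.4 and 26.6 TPM. The median over expressed protein-coding genes was 20.1, 20.9 and 18.6 TPM, so ERBB2 was not low among them. RNA levels do not say whether the gene is amplified. EGFR exceeded ERBB2 in every library, by 5.14, 3.41 and 4.53 times.

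Of 15 luminal genes, 8 were expressed (53.3%, near the 57.2% of all protein-coding genes), 6 low and 1 undetected. MLPH, which links melanosomes to myosin, had 145, 65.3 and 52.6 TPM, and XBP1, a factor of the unfolded protein response, averaged 54.9 ± 2.07 TPM. Of the defining luminal factors, GATA3 was expressed at 4.12, 3.77 and 2.29 TPM and FOXA1 was low at 0, 2 and 0 counts. Of 12 basal genes, 6 were expressed (50%), 2 low and 4 undetected. ITGA6, a laminin-binding integrin, had 247, 178 and 147 TPM, and EGFR had 104, 100.2 and 120 TPM. SOX10, KIT, GABRP and EN1 had no count in any library, and the basal keratins KRT5 and KRT6A had none either.

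Mesenchymal genes held several of the highest levels in the cells. VIM, the intermediate filament vimentin, had 878, 1046 and 1081 TPM and was the 43rd most abundant protein-coding gene by mean TPM. CD44, the hyaluronan receptor, had 1170, 651 and 575 TPM and was 68th. The marker genes given for the line were thus both high, with VIM lowest and CD44 highest in replicate 1. With TPM from counts and exon length VIM averaged 742 TPM and CD44 308 TPM, against 1001 and 799 in the deposited values. Of 46 mesenchymal genes, 33 were expressed (71.7%, against 57.2% of all protein-coding genes), 9 low and 4 undetected.

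Among surface and cytoskeletal genes, ITGB1, the shared beta-1 integrin chain, had 957, 489 and 473 TPM. AXL, a receptor tyrosine kinase for GAS6, had 243, 397 and 358 TPM. NT5E, which makes extracellular adenosine, was steady at 276 ± 16.2 TPM, and CAV1, the caveolar coat protein, at 229 ± 27.0 TPM. S100A4, a calcium-binding protein tied to motility, had 769, 403 and 227 TPM. CDH2, the N-cadherin that often marks mesenchymal cells, was low at 22, 14 and 16 counts, and THY1 had none. By TPM, CDH2 was not above CDH1 in every library, at 0.108, 0.789 and 1.05 of its level. CDH11, another mesenchymal cadherin, was above CDH1 in each library, by 9.38, 29.4 and 75.5 times, where CDH1 had only 17 and 4 counts in replicates 2 and 3. With TPM from counts and exon length the ratio was 3.04 in replicate 1.

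Among matrix genes, THBS1, thrombospondin 1, averaged 305 ± 61.4 TPM, and MMP14, a membrane-bound collagenase, 204 ± 53.6 TPM. FN1, fibronectin, had 350, 99.7 and 126 TPM. Of LOXL2 and LOX, which cross-link collagen, LOXL2 averaged 151 ± 22.1 TPM and LOX had 98.9, 40.8 and 41.4 TPM. Of the fibrillar collagen genes, COL5A1 had 112, 50.0 and 67.8 TPM and COL1A1 had 10.6, 3.46 and 6.44 TPM. COL1A1 was named after its values were seen. COL3A1 had no count, and COL1A2 had 379, 51 and 27 counts, most of them in replicate 1.

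Of 10 mesenchymal transcription factors, 5 were expressed (50%, against 57.2% of all protein-coding genes). HMGA2, an architectural chromatin protein, had 66.3, 45.0 and 68.7 TPM, ZEB1 had 64.0, 60.1 and 43.4 TPM, and SNAI2 had 31.6, 42.4 and 40.1 TPM. ZEB1, a repressor of CDH1, exceeded ZEB2 by 4.33, 6.94 and 4.46 times, and by 12.3, 15.5 and 13.6 times with TPM from counts and exon length. SNAI1 was near the threshold at 1.99 ± 0.839 TPM, and TWIST1 and TWIST2 had no count. By level, HMGA2 and ZEB1 did not differ beyond their spread, while ZEB1 and ZEB2 did not overlap.

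**Figure D2:**
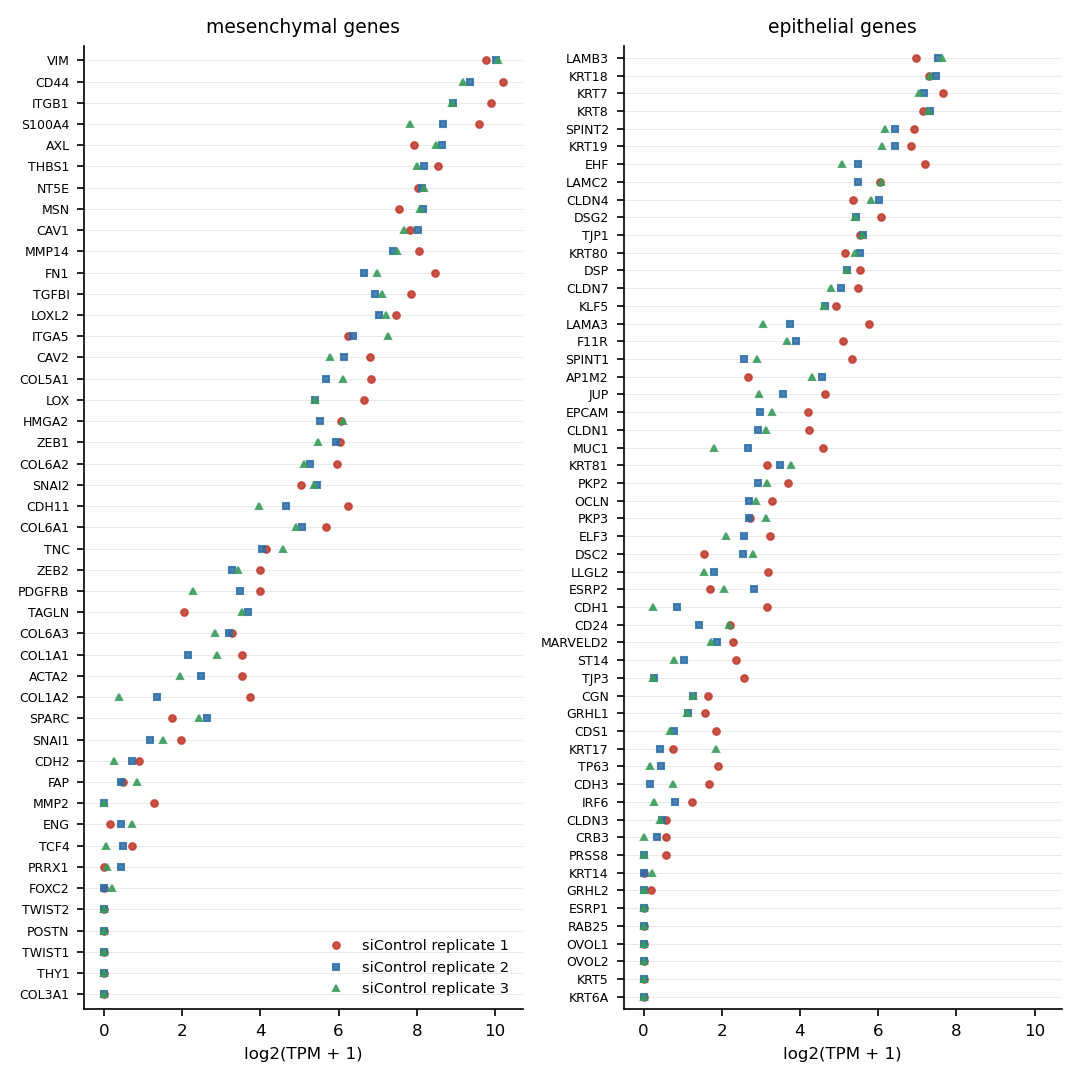
Level of mesenchymal genes (left) and epithelial genes (right) on the scale of log2(TPM + 1), with 1 point per siControl library and genes in order of mean TPM. VIM lies near 10 on this scale, the leading epithelial genes LAMB3 and KRT18 near 7 to 8, and many epithelial genes have their highest point in replicate 1.

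Of 55 epithelial genes, 35 were expressed (63.6%, near the 57.2% of all protein-coding genes), 15 low and 5 undetected. The simple-epithelial keratins KRT18, KRT8, KRT7 and KRT19 averaged 164 ± 11.4, 152 ± 10.1, 158 ± 37.2 and 88.2 ± 23.1 TPM, and VIM exceeded KRT18 by 5.64, 5.90 and 6.77 times. LAMB3, a chain of laminin-332, had 124, 185 and 199 TPM. Junction genes were expressed at moderate levels. CLDN4, a claudin, had 40.3, 64.1 and 55.4 TPM, TJP1, the tight-junction scaffold ZO-1, averaged 47.0 ± 1.55 TPM, and DSP, desmoplakin, 38.8 ± 5.41 TPM.

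The epithelial regulators were unevenly represented. EHF, an epithelial ETS factor, had 145, 43.6 and 32.7 TPM and KLF5 averaged 25.7 ± 3.06 TPM. ESRP1, an epithelial splicing factor, OVOL1 and RAB25 had no count, and GRHL2 had 2 counts in replicate 1 only. OVOL2 was listed at 0 TPM with 55, 98 and 91 counts, a disagreement of the 2 tables found for 93 genes. CDH1, E-cadherin, had 230, 17 and 4 counts, or 7.92, 0.819 and 0.193 TPM. EPCAM, an epithelial adhesion molecule, had 17.3, 6.95 and 8.76 TPM.

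CDH1 was 1 of 15 epithelial genes whose TPM in replicate 1 was more than 2 times that in each other library, out of 45 with at least 10 counts in a library (33.3%). Over all protein-coding genes the share was 9.22%, and for mesenchymal genes it was 5 of 38. Across the other lists it ran from 0 of 74 pausing genes to 5 of 13 markers of other cell types (38.5%), so a raised share was not limited to epithelial genes. SPINT1, a matriptase inhibitor, had 39.2, 4.90 and 6.51 TPM. The keratins did not share this pattern, with 0 of 7. In bulk RNA, fewer cells of a type and less RNA per cell cannot be told apart, so it was not tested whether all cells of replicate 1 carried more of these transcripts. In the opposite direction, 10.3% of protein-coding genes were more than 2 times lower in replicate 1 than in each other library.

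Of 215 receptor genes, 129 were expressed (60.0%, near the 57.2% of all protein-coding genes), 62 were low and 24 undetected. Among 51 receptor tyrosine kinases 24 were expressed. AXL stood first, then EGFR at 108 ± 10.8 TPM, followed by MET, the receptor of hepatocyte growth factor, at 113, 74.1 and 68.7 TPM, and FGFR1 at 80.4 ± 9.19 TPM. The levels of AXL and EGFR did not overlap, while those of MET and FGFR1 did. EPHA2, an ephrin receptor, had 25.3, 75.3 and 66.5 TPM, lowest in replicate 1. KIT, FLT3, FLT4, RET, NTRK2, EPHA3, EPHB6 and INSRR had no count.

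Of 36 cytokine and death receptors 29 were expressed (80.6%, against 57.2% of all protein-coding genes). IL6ST, the signalling chain gp130, had 223, 160 and 178 TPM and OSMR, the oncostatin M receptor, 177, 63.5 and 60.7 TPM, while IL6R, the IL-6 binding chain, was low at 18, 26 and 159 counts. TNFRSF1A, TNFRSF10B and LTBR, receptors of TNF, TRAIL and lymphotoxin, averaged 88.3 ± 26.1, 71.9 ± 11.3 and 62.9 ± 2.76 TPM. Of the TGF-beta receptors, TGFBR2 had 96.1, 84.1 and 122 TPM and TGFBR1 had 130, 46.4 and 44.5 TPM, so that their order turned in replicate 1.

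Among 50 G protein-coupled receptors 28 were expressed (56%, near the 57.2% of all protein-coding genes). ADGRE5, the adhesion receptor CD97, averaged 73.7 ± 7.74 TPM, F2RL1, the protease-activated receptor PAR2, had 39.5, 47.6 and 64.9 TPM and ADORA2B, an adenosine receptor, 29.3, 61.1 and 61.2 TPM. GPRC5B had 63.5, 5.88 and 3.03 TPM, with nearly all its level in replicate 1. SMO, the Hedgehog signal transducer, had no count, nor had CXCR1, CXCR2 or the Frizzled genes FZD9 and FZD10. Of 48 nuclear receptors 25 were expressed, and the highest were the orphan receptors NR2F2 at 48.4 ± 2.55 TPM and NR2C1 at 46.7 ± 12.5 TPM and the glucocorticoid receptor NR3C1 at 45.6 ± 13.9 TPM, which did not differ beyond their spread. CD63, a tetraspanin of exosomes, and BSG, an inducer of matrix proteases, were the highest of the uptake and protease receptors at 300.1 ± 18.1 and 255 ± 12.9 TPM.

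Of 190 secreted factors, 128 were expressed (67.4%, against 57.2% of all protein-coding genes), 42 low and 20 undetected. LGALS1, a galectin, had 476, 811 and 726 TPM and CTSD, a lysosomal protease that tumours release, 1009, 671 and 532 TPM. Together the secreted genes summed to 14064, 10139 and 10226 TPM, highest in replicate 1. In that library 30 of 152 exceeded 2 times each other library (19.7%, against 9.22% of all protein-coding genes).

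Of 25 cytokines and chemokines 19 were expressed (76%, against 57.2% of all protein-coding genes). IL6 had 435, 126 and 169 TPM, CSF1, the macrophage growth factor, 368, 145 and 133 TPM and CXCL8, a neutrophil chemokine, 179, 69.7 and 85.8 TPM, each highest in replicate 1. CSF3, the granulocyte growth factor, ran the other way at 12.3, 106 and 197 TPM. MIF averaged 211 ± 62.0 TPM and IL1B 66.3 ± 12.7 TPM. CCL2 had 4, 2 and 0 counts and TNF 0, 4 and 6, and CXCL12, IL33 and TSLP had none.

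Growth factors were led by VEGFA, the angiogenic factor, at 506, 203 and 202 TPM. AREG, a ligand of EGFR, had 231, 48.4 and 30.1 TPM and TGFB2 had 179, 60.1 and 36.1 TPM. TGFA, a further EGFR ligand, averaged 38.9 ± 11.6 TPM. TGFB2 exceeded TGFB1 in every library, with TGFB1 at 0.190, 0.437 and 0.916 of its level, but with TPM from counts and exon length TGFB1 was 1.36 times higher in replicate 3. Several ligands whose receptors were expressed had no count, among them HGF, the ligand of MET, and IGF1. DKK1, a Wnt antagonist, had 238, 194 and 138 TPM. Only 5 of 15 Wnt ligands and inhibitors were expressed (33.3%, against 57.2% of all protein-coding genes).

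PLAU, urokinase, had 182, 143 and 163 TPM and its receptor PLAUR 88.1, 110 and 136 TPM. TIMP1 and TIMP2, inhibitors of matrix metalloproteases, averaged 189 ± 3.78 and 274 ± 96.9 TPM. The lysosomal proteases CTSB and CTSL averaged 277 ± 119 and 112 ± 34.2 TPM. MMP2, a gelatinase, had 8, 0 and 0 counts. Of the matrix proteins, LAMC1 and LAMB2, laminin chains, averaged 172 ± 53.2 and 156 ± 5.14 TPM, and BGN, NID1 and COL3A1 had no count. IGFBP4, an IGF-binding protein, averaged 437 ± 33.2 TPM, while IGFBP2 and IGFBP5 had none.

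Hippo genes were almost all present. Of 86, 77 were expressed (89.5%, against 57.2% of all protein-coding genes), 6 low and 3 undetected. YAP1 had 112, 113 and 98.0 TPM and WWTR1, which encodes TAZ, 28.7, 42.2 and 31.7 TPM, so that YAP1 exceeded its paralog by 3.90, 2.67 and 3.10 times. Among the DNA-binding partners TEAD1 had 87.6, 110 and 95.1 TPM, above TEAD3 (20.1, 26.5 and 22.2), TEAD2 (8.62, 19.3 and 13.3) and TEAD4 (3.68, 12.3 and 13.6). TEAD1 did not overlap with the others, while TEAD2 and TEAD4 overlapped. VGLL4, a competitor of YAP for TEAD, averaged 18.0 ± 4.38 TPM and VGLL3 had 3.43, 5.20 and 6.41 TPM, and VGLL1 and VGLL2 had no count.

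In the kinase cassette, STK4 (MST1) had 50.2, 45.4 and 49.4 TPM and STK3 (MST2) averaged 18.4 ± 6.98 TPM, at 0.495, 0.426 and 0.222 of the level of STK4. LATS1 and LATS2 averaged 14.9 ± 1.57 and 14.5 ± 2.36 TPM and did not differ beyond their spread. The adaptor SAV1 had 67.6, 30.5 and 26.6 TPM, and the adaptor MOB1A averaged 58.7 ± 12.8 TPM and exceeded MOB1B by 1.67, 4.01 and 4.02 times. MAP4K4, a kinase that acts beside MST, was the highest of the 18 genes at 259, 171 and 145 TPM, and MAP4K1, a blood cell kinase, had 2, 0 and 0 counts.

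Upstream, 35 of 41 regulators were expressed (85.4%, against 57.2% of all protein-coding genes). The 14-3-3 proteins YWHAE and YWHAZ, which hold phosphorylated YAP in the cytoplasm, averaged 658 ± 91.3 and 628 ± 90.5 TPM, and the GTPase RHOA 347 ± 26.7 TPM. FRMD6 had 155, 181 and 229 TPM and the phosphatase PTPN14 72.0, 104 and 90.9 TPM. NF2, the tumour suppressor merlin, was expressed at only 5.20, 5.74 and 4.73 TPM. Of the motins, which bind YAP, AMOTL2 averaged 42.3 ± 14.5 TPM and AMOTL1 28.9 ± 8.09 TPM, but AMOT had 0, 2 and 0 counts. Of the atypical cadherins, which act at the top of the cascade, FAT1 averaged 60.8 ± 6.81 TPM and FAT4 9.06 ± 6.57 TPM. FAT2 had no count, DCHS1 had 4, 8 and 10 counts, DCHS2 had 2, 0 and 0 counts and FAT3 had 6, 99 and 108 counts. The polarity gene SCRIB had 9.11, 29.0 and 29.6 TPM, and the scaffolds WWC1, WWC2 and WWC3 (the KIBRA family) averaged 50.8 ± 8.97, 29.8 ± 16.2 and 25.9 ± 2.32 TPM. The STRIPAK subunits STRN4, STRN3 and STRN, of a phosphatase complex that acts on MST, averaged 66.6 ± 5.56, 26.7 ± 8.45 and 18.8 ± 0.728 TPM.

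All 22 known targets of YAP and TEAD were expressed, which says only that their transcripts were present. CYR61, a matricellular protein, had 496, 450 and 428 TPM and CTGF, its relative, 62.8, 80.2 and 64.5 TPM, or 0.127, 0.178 and 0.151 of CYR61. ANKRD1, a nuclear ankyrin-repeat protein, had 270, 219 and 195 TPM. F3, tissue factor, had 532, 212 and 207 TPM, more than 2 times higher in replicate 1. HEG1, a membrane protein, had 348, 102 and 110 TPM and IGFBP3, an IGF-binding protein, 79.2, 21.8 and 13.6 TPM, both highest in replicate 1. BIRC5, survivin, had 25.9, 59.0 and 46.4 TPM and was lowest in replicate 1. FJX1 and LATS2 were the lowest of the list at 16.5 ± 6.73 and 14.5 ± 2.36 TPM.

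The 250 bases upstream of the start of ANKRD1 and CTGF are shown because both hold the word GGAATG, the core of the sequence that TEAD factors bind. The sequences are from RefSeq on GRCh38.p14, both genes lie on the minus strand, and capitals mark GGAATG on either strand. They span chr10:90921088-90921337 for ANKRD1, with 2 matches, and chr6:131951373-131951622 for CTGF (CCN2 in RefSeq), with 3.
ANKRD1: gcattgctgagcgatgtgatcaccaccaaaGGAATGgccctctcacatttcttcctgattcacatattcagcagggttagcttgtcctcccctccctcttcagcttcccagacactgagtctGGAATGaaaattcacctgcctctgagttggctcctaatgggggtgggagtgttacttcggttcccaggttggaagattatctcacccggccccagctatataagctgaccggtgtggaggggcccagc
CTGF: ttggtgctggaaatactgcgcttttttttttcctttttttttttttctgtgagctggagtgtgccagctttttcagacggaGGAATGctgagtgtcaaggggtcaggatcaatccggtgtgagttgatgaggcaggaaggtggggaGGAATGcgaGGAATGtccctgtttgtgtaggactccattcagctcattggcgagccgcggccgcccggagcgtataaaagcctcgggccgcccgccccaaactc

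GGAATG occurred upstream of 7 of the 22 targets and of 9.78% of all 19614 protein-coding genes with upstream bases. The target list was assembled from genes already known to respond to YAP, so its members are not a sample of promoters. A match is only a run of letters, and no binding was measured here.

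The pausing machinery was present nearly whole. Of 74 genes, 72 were expressed (97.3%, against 57.2% of all protein-coding genes), 2 low and none undetected. In replicate 1 none had more than 2 times the level of each other library, against 9.22% of all protein-coding genes. In the other direction 7 of 74 were more than 2 times lower than in each other library, near the 10.3% of all protein-coding genes. NELFE, the RNA-binding NELF subunit, had 85.4, 95.4 and 83.3 TPM and NELFCD 75.3, 70.3 and 61.1 TPM. NELFB had 17.2, 46.4 and 40.5 TPM, and NELFA, the subunit that contacts the polymerase, was lowest at 13.2, 20.2 and 14.1 TPM. NELFE and NELFCD did not overlap with NELFA in any library, and NELFB overlapped with it only through replicate 1. The subunits work in equal numbers in the complex, and transcript levels do not measure protein.

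Of DSIF, SUPT5H had 83.4, 71.0 and 68.7 TPM and its small partner SUPT4H1 50.9, 44.5 and 49.4 TPM. With TPM computed here from counts and exon length the order of this pair turned, at a mean log2 ratio of -0.18 against 0.62. Of P-TEFb, the kinase CDK9 had 18.3, 45.6 and 41.1 TPM, and its cyclins CCNT1 and CCNT2 averaged 16.7 ± 0.142 and 18.6 ± 2.93 TPM and did not differ beyond their spread. HEXIM1, which inhibits P-TEFb on 7SK, had 28.3, 26.6 and 22.8 TPM and exceeded HEXIM2 by 8.69, 7.30 and 3.97 times. LARP7, which binds the end of 7SK, had 51.9, 28.1 and 25.6 TPM and MEPCE, which caps it, 6.11, 17.9 and 17.3 TPM. RN7SK itself, at 89253 ± 4463 TPM, stood far above the messenger RNAs of its protein partners on the same per-length scale.

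AFF4 and AFF1, scaffolds of the super elongation complex, averaged 81.9 ± 20.4 and 52.1 ± 14.5 TPM, with AFF4 above AFF1 by 1.54, 1.57 and 1.63 times. ELL2 led its family at 96.1, 55.3 and 55.3 TPM, and ELL3 (27, 29 and 24 counts) and EAF2 (0, 10 and 10 counts) were the 2 low genes. All 12 polymerase subunits were expressed, from POLR2C at 30.8 ± 10.3 to POLR2L at 91.1 ± 40.3 TPM, with the catalytic subunit POLR2A at 33.3, 65.7 and 56.8 TPM. All 16 Integrator and termination genes were expressed, from INTS5 at 7.38 ± 3.25 to the exonuclease XRN2 at 55.6 ± 10.0 TPM. The histone chaperone gene SSRP1 was the highest of 22 other elongation factors at 136 ± 27.0 TPM, and POLR2M, which encodes the polymerase-associated protein Gdown1, the lowest at 15.1 ± 2.49 TPM. The TFIIH kinase CDK7 and its partners MNAT1 and CCNH averaged 46.5 ± 16.5, 71.6 ± 9.86 and 45.5 ± 2.61 TPM. The PAF1 complex subunits PAF1, CTR9, RTF1, WDR61, CDC73 and LEO1, which travel with the polymerase, lay between 17.8 ± 0.807 (LEO1) and 34.3 ± 3.36 TPM (PAF1). CDK12 and CDK13, kinases of the polymerase tail, averaged 43.7 ± 1.32 and 35.1 ± 4.44 TPM.

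**Figure D3:**
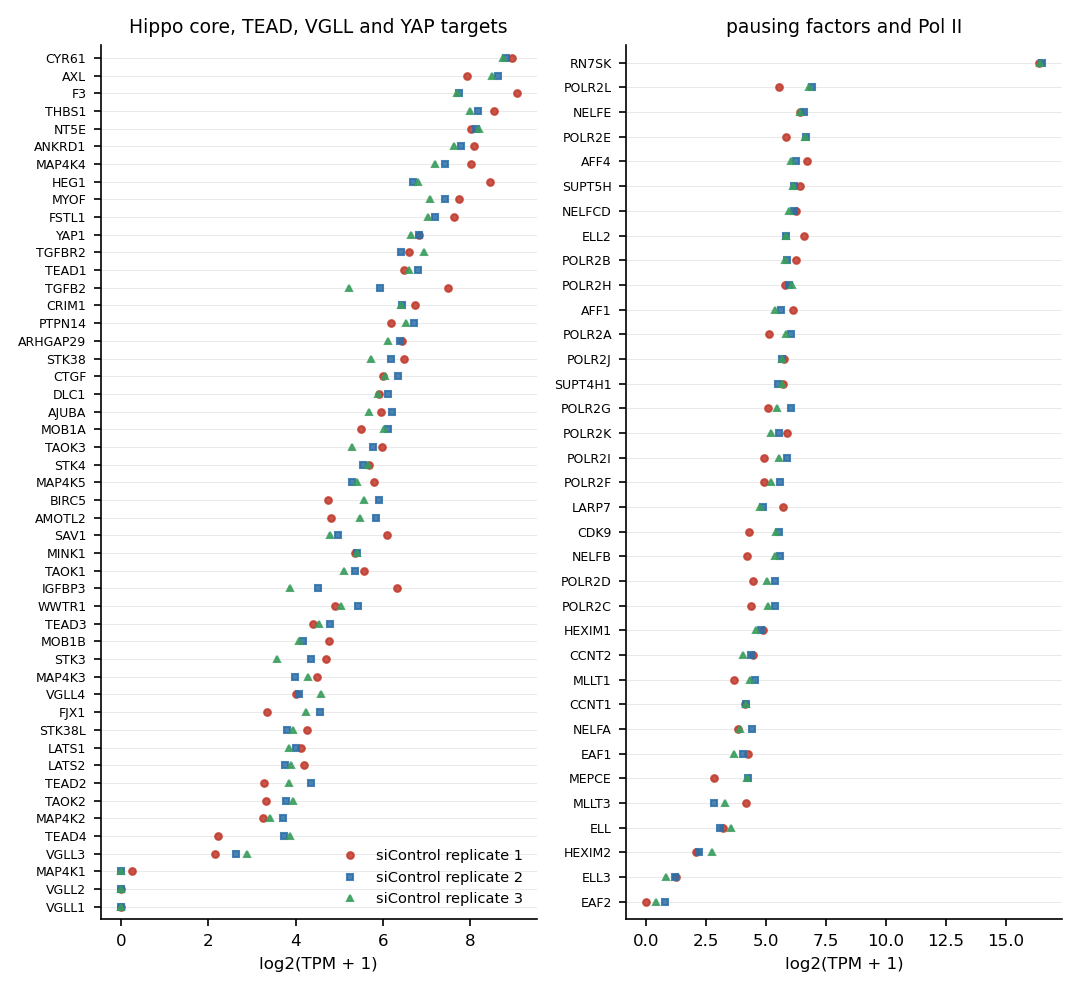
Level of Hippo effectors, TEAD and VGLL factors, core kinases and YAP targets (left) and of pausing factors and RNA polymerase II subunits (right) on the scale of log2(TPM + 1), with 1 point per siControl library and genes in order of mean TPM. RN7SK lies far to the right of all protein-coding pausing genes, and among the 4 NELF subunits NELFA has the lowest mean.

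Of 61 measured cancer genes, 34 were expressed (55.7%), 8 low and 19 undetected. Over all protein-coding genes 57.2% were expressed and 20.7% undetected. Among oncogenes BCL2L1, an inhibitor of apoptosis, had 150, 250 and 203 TPM, the cyclin CCND1 82.4, 210 and 181 TPM and MYC 76.0, 114 and 96.8 TPM. MYCN had no count, and TERT, the telomerase reverse transcriptase, was low at 8, 129 and 87 counts. Among tumour suppressors CDKN1A, an inhibitor of cyclin-dependent kinases, had 35.6, 54.1 and 74.7 TPM and BAP1, a deubiquitinase, averaged 39.9 ± 3.74 TPM. No cancer-testis gene of 21 was expressed and 15 had no count. XAGE1A was listed at 158, 143 and 125 TPM on 4, 14 and 6 counts, so it was called low by the count minimum.

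CDKN2A, CDKN2B and MTAP, neighbours on chromosome 9, had 0 counts in all 3 libraries, which allows up to 3 fragments per library. At 2 counts per fragment that is 6 counts, or 0.319 to 0.624 CPM (counts scaled to library size). CDKN2A and CDKN2B encode inhibitors of cyclin-dependent kinases and MTAP an enzyme of methionine salvage. In GENCODE release 44 on GRCh38, CDKN2A lies at chromosome 9, 21967752 to 21995301, on the minus strand. Within 2.5 Mb on each side, 23 of 27 protein-coding genes were undetected, 2 low and 2 expressed, against 20.7% undetected of all protein-coding genes. Most of the 23 are type I interferon genes of 1 family, so they are not independent. The undetected stretch ran without a break from HACD4, which starts at 20999509, to DMRTA1, which ends at 22455740. It included the type I interferon genes of the window and the ubiquitin-ligase adaptor KLHL9, and its genes other than CDKN2A, CDKN2B and MTAP were chosen after their values were seen. Outside it, FOCAD had 9.97, 11.2 and 9.99 TPM, next to HACD4, and MLLT3, of the super elongation complex, had 16.7, 6.10 and 8.65 TPM. Interferon genes are silent in most unstimulated cells. Whether the DNA of this region is present in the cells cannot be told from RNA and was not tested.

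Several large gene families were silent or nearly so. Of 397 olfactory receptor genes 0 were expressed and 372 had no count, and of 37 beta-defensins and 94 keratin-associated proteins none were expressed, with 37 and 86 at no count. The keratins, some of which are also in the epithelial list, were expressed in part, with 9 of 55 genes expressed and 36 at no count. Over all protein-coding genes 20.7% had no count. Of 24 bitter taste receptors 10 were expressed, but 0 at a TPM of at least 5. Of 381 immunoglobulin and T cell receptor segments 2 were expressed. One of these, IGHV3-15, named after its values were seen, had 5.90, 111 and 81.4 TPM. No HOXA gene of 11 and no HOXC gene of 9 was expressed, against 3 of 10 HOXB and 2 of 9 HOXD genes, and at a TPM of at least 5 none of the 4 clusters had an expressed gene. The highest of the HOXB genes, HOXB9, named after its values were seen, averaged 6.39 ± 1.27 TPM. Of the clustered protocadherins 17 of 22 gamma, 3 of 16 beta and 0 of 15 alpha genes were expressed, and 1, 0 and 0 at a TPM of at least 5. Against 57.2% of all protein-coding genes, 82 of 84 ribosomal protein genes (97.6%), 394 of 476 ZNF genes (82.8%), 10 of 14 annexins (71.4%) and 168 of 341 solute carriers (49.3%) were expressed. The ZNF count was 244 at a TPM of at least 5.

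Markers of other cell types were counted over the whole list of 49, of which 7 were expressed (14.3%, against 57.2% of all protein-coding genes), 14 low and 28 undetected, and 2 were expressed at a TPM of at least 5. Of 12 leukocyte markers, PTPRC (CD45), CD3E, CD3D, CD2, MS4A1 and NKG7 had no count, while CD68 averaged 78.7 ± 3.28 TPM, CSF1R 4.70 ± 0.408 TPM and CD14 had 9.31, 2.17 and 1.88 TPM. The summed leukocyte level was 88.5, 87.9 and 87.4 TPM, nearly all of it CD68, a lysosomal protein that is not limited to macrophages. Of 6 endothelial markers KDR was expressed at 1.27 ± 0.303 TPM, CLDN5 had no count and the sum ranged from 2.16 to 4.15 TPM. Of 6 neural and glial markers MBP had 68.6, 34.1 and 23.6 TPM, GFAP 5.86 ± 2.20 TPM and SNAP25 2.87 ± 0.261 TPM, with OLIG2 and RBFOX3 at no count. MBP shares its locus with a longer gene product made in many cells, and which transcript gave these reads was not resolved. Erythroid, liver, pancreas and gut, muscle, and germ line lists had no expressed member, and their sums stayed at or below 1.61 TPM. ALB, INS and GCG had no count.

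The bases upstream of transcript starts differed between expressed and silent genes. CpG dinucleotides are kept in the unmethylated promoters of most widely expressed genes and are depleted elsewhere in the genome. Over the 250 bases before each start, expressed genes had a median of 22 CpG, low genes 11 and undetected genes 5. The share with a CpG observed over expected ratio of at least 0.6 was 85.9% of 11365 expressed, 47.2% of 4291 low and 27.5% of 3958 undetected genes. The call of expressed did not use sequence, and genes of 1 family share sequence, so the shares are descriptions. Among expressed genes the share rose with mean TPM over 4 bins of equal size, from 75.4% in the lowest to 86.9%, 90.3% and 91.0%.

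**Figure D4:**
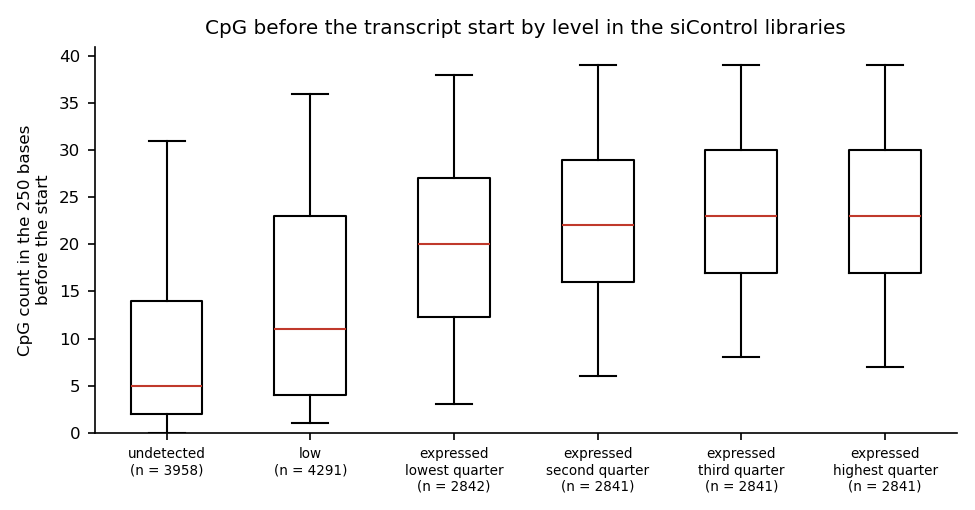
Number of CpG dinucleotides in the 250 bases before the transcript start of protein-coding genes, by call in the siControl libraries, with expressed genes in 4 equal bins of mean TPM. Lines are medians, boxes quartiles and whiskers the 5th and 95th percentiles, and the median goes from 5 in undetected genes to 23 in the highest bin.

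The motif TATAAA, the TATA box, was upstream of 4.80% of expressed, 11.05% of low and 19.4% of undetected genes, and of 9.12% of all. GGGCGG, the GC box, went the other way, at 73.0%, 50.2% and 30.4%, with 59.4% of all. CCAAT was found in 35.2%, 31.7% and 34.9%, and TGACTCA, the AP-1 site, in 2.22%, 4.12% and 4.14%. All motifs were searched on both strands, and GGGCGG contains a CpG itself. In the highest bin of expressed genes TATAAA was present in 7.00%, above the 3.48% to 4.96% of the lower bins.

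The upstream sequences of VIM, CD44, NELFE and KRT5 are shown as examples of abundant mesenchymal genes, a CpG-dense pausing gene and a keratin gene with no count. They are from RefSeq on GRCh38.p14, 5′ to 3′ on the strand of the gene, with CG in capitals. VIM lies at chr10:17227991-17228240 on the plus strand, CD44 at chr11:35138921-35139170 on the plus strand, NELFE at chr6:31958972-31959221 on the minus strand and KRT5 at chr12:52520395-52520644 on the minus strand.
VIM: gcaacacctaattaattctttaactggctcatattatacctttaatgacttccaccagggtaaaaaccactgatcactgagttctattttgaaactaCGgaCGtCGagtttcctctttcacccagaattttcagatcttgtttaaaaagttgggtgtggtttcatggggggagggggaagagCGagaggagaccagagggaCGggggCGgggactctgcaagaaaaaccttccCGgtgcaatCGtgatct
CD44: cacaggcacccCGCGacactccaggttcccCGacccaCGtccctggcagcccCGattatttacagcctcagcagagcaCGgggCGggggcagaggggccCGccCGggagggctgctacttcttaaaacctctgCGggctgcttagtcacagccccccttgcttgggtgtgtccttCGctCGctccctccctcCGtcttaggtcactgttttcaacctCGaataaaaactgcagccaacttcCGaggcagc
NELFE: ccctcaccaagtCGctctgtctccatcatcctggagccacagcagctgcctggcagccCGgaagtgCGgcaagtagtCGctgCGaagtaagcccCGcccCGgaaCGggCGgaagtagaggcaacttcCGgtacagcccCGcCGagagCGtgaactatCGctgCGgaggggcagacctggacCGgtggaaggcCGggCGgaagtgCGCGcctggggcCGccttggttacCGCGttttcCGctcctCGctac
KRT5: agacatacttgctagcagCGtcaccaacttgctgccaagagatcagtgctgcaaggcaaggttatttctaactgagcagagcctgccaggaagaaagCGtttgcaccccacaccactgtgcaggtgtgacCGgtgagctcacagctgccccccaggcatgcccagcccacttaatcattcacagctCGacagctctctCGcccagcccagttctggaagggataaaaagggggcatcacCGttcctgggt

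These windows hold 8, 15, 25 and 6 CpG, with observed over expected ratios of 0.613, 0.637, 0.896 and 0.309. VIM was thus among the most abundant messenger RNAs with fewer CpG in this window than the median low gene, and with a GC box in it. Every upstream window of the NELF, DSIF, P-TEFb, polymerase, super elongation and other elongation genes reached a ratio of 0.6, as did 87.5% of the Integrator and termination genes.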

How the data were processed

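RNA was sequenced after removal of ribosomal RNA. The siControl libraries were 3 of 12, described in the study as independent biological replicates. The authors aligned reads with STAR in 2-pass mode to GRCh38 with Ensembl release 87 and deposited raw read counts per gene, made with featureCounts. They also deposited TPM values, a level per length scaled to a fixed total, and an FPKM table that was not used here. The submitters' processing notes further name Cufflinks, cutadapt, FastQC and DESeq2, and the strand and overlap options of the counting are not given in the sources used here. Of counts from 1 to 20, 82.4%, 78.7% and 79.8% were even, against about as many even as odd from 100 counts on, so a fragment typically gave 2 counts.

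Only the siControl columns were read, and 0 columns of unmapped samples were found. The TPM table held 58131 lines, of which 94 repeated an identifier and were summed, and 14 genes had no TPM. A gene was expressed at a TPM of at least 1 and at least 10 counts in each library, undetected at 0 counts in all 3, and low otherwise. A count of 0 allows up to 3 fragments, or at 2 counts per fragment 6 counts (0.319 to 0.624 CPM), and these limits cover counting error only. Medians of lists are on the scale of log2(TPM + 1), with a pseudocount of 1. No group was tested against another and no p-value is given. The 9 lists, 764 measured genes in all, came from general knowledge, and members and lists were chosen with earlier results of these data known. The text names the 20 protein-coding and 10 non-coding genes highest in mean TPM, and Hippo and pausing genes by role. From each other sublist, names were drawn from the 8 leading expressed members and from the low or undetected ones. Not every such gene is named. Exon lengths and transcript starts came from GENCODE release 44 on GRCh38. Upstream bases (250) were read from the genome for 98.3% of protein-coding genes, because the RefSeq promoter table matched 15202 of 19961 (76.2%), under the 80% asked. Printed promoters are from RefSeq. Some list members are counted but not reported here by name, and are left out of the plots.

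Alternatives were TPM thresholds of 0.5 and 5, no count minimum, a pseudocount of 0.1, TPM computed from counts and exon length, TMM factors (edgeR 4.0.16) and size factors (DESeq2 1.42.0) for the agreement of libraries, and leaving out each replicate. Scaling to the protein-coding total and the RefSeq promoter table were added after seeing the data. Scripts ran in R 4.3.3 and Python 3.11.15 with pandas 2.3.3, numpy 2.4.6, scipy 1.17.1 and matplotlib 3.10.9, and were tested on simulated data.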

Additional observations from a re-analysis of the deposited data

How the results depend on the processing

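No paired analysis was possible because 1 group is described and no result comes from a test. Of the alternative values of the main results, 60 moved by no more than 1 SD over the libraries, 1.5 times for a count of genes, or the binomial interval of a promoter share, and 8 by more. For single lists, families and pairs 372 stayed within such limits, 39 moved and 2 reversed. For list medians, pair ratios and abundance shares, leaving out a replicate cannot move a mean by as much as 1 SD. Those values count as unmoved in advance, so they do not test dependence on replicate 1. Protein-coding genes took 55.7% of TPM, 89.7% of counts and 92.9% of TPM once small RNAs and mitochondrial genes were left out, and the 10 leading genes took 35.8%, 8.17% and 6.64%. The mean share of expressed genes over 2-fold apart between libraries was 14.5%, and 3.26% to 21.5% with a replicate left out, the lowest without replicate 1. CpG-rich promoters of expressed genes were 85.9%, 89.0% at a TPM of at least 5 and 82.7% by the RefSeq table, and of undetected genes 27.5% and, by that table, 25.1%. With TPM computed from counts and exon length, the log2 ratio of FTL over FTH1 went from -0.12 to 1.21 and that of SUPT5H over SUPT4H1 from 0.62 to -0.18. Ratios near 0 also moved, LATS1 over LATS2 from 0.05 to -0.63 and CCNT1 over CCNT2 from -0.15 to 0.48. The ratio of ZEB1 over ZEB2 went from 2.36 to 3.78, of TMSB10 over TMSB4X from 0.64 to 2.18 and of PLAU over PLAUR from 0.56 to 1.95. The cause was not tested. Over all expressed genes the Spearman correlation of the deposited and the computed TPM was 0.833. Expressed protein-coding genes numbered 11412, and from 9188 at a TPM of at least 5 to 11861 at 0.5. Of 764 list genes, a TPM of at least 5 lost 94, with markers of other cell types going from 7 to 2, and leaving out replicate 1 gained 13.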
